A study of Mus musculus with 2 samples.

Results

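Hepcidin, transthyretin, fibrinogen, albumin and the apolipoproteins are secreted into the blood mainly by hepatocytes, yet their transcripts were counted in epithelial cells of the mouse thymus. The 10 genes described here, Hamp, Hamp2, Ttr, Fga, Fgb, Fgg, Alb, Apoa1, Apoa4 and Apob, were taken by symbol from the 55487 genes of the count table, and each symbol matched 1 row. The study concerns Z-DNA and the genes that Aire switches on, and these libraries hold single medullary thymic epithelial cells (mTECs) of female C57BL/6J mice aged 4 weeks. The treated mice had received intraperitoneal spermidine, a natural polyamine, dissolved in phosphate-buffered saline (PBS), 15 mg/kg once a day for 7 injections, and the control mice had received PBS alone. After bead depletion of CD45+ cells, mTEChi and post-Aire mTEClo cells were sorted, tagged with hashtag antibodies and pooled into 1 droplet run of 10x Genomics 3' chemistry. Hashtags HT2 and HT3 marked spermidine samples 1 and 2, and HT4 and HT5 marked PBS samples 1 and 2.

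mTECs transcribe a great many genes that otherwise belong to single peripheral organs, so that developing T cells meet those antigens before they leave the thymus. Aire, a nuclear protein, raises many of these transcripts in mTEChi cells, each in a small and changing share of the cells. After the Aire stage some mTECs turn into mimetic cells, which take on programmes of tuft, microfold, enterocyte, hepatocyte, skin, muscle and other cells with the help of the transcription factors of those lineages.

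The 10 genes lie on 6 chromosomes in the GENCODE M21 annotation of GRCm38 (the assembly also called mm10), and each is protein-coding. Hamp (ENSMUSG00000050440.8, chr7:30942368-30944032, minus strand) and Hamp2 (ENSMUSG00000056978.8, chr7:30922372-30924681, minus strand) are neighbours with 17686 bases between them. The fibrinogen genes are also neighbours: Fgg (chr3:83007724-83015049, plus strand) and Fga (chr3:83026076-83033627, plus strand) stand 11026 bases apart, and Fgb (chr3:83040141-83049863, minus strand) follows Fga after 6513 bases. Apoa1 (chr9:46228580-46230466, plus strand) and Apoa4 (chr9:46240696-46243459, plus strand) have 10229 bases between them. Ttr (chr18:20665280-20674321, plus strand), Alb (chr5:90460897-90476602, plus strand) and Apob (chr12:7977648-8016835, plus strand) stand alone among the 10 genes.

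With hashtags HT2 to HT7 called together, 3739 cells carried 1 hashtag of the 4 samples. Spermidine 1 gave 1099 cells, spermidine 2 gave 778, PBS 1 gave 1078 and PBS 2 gave 784, with 13316095 to 19893017 unique molecular identifiers (UMIs, 1 per captured RNA molecule) per sample and a median of 14549 to 16812 per cell. The assignment gave each of these barcodes to 1 sample. The labels do not say that the 2 samples of a treatment came from separate mice, so each p-value sets a difference against the spread of hashed samples, and that spread may be a technical one. Clustering without the 10 genes gave 17 clusters and 12 classes, called "-like" because they rest on marker lists. The 10 epithelial classes held 3578 cells, and 161 cells were myeloid-like or thymocyte-like. Of the 1108 Aire-stage-like cells, cluster 0 held 456, cluster 4 held 530 and cluster 1 held 122. Clusters 0 and 4 had no marker of that list among their 10 leading genes and were named from 7 and 5 of 14 list markers at more than 2-fold, and cluster 1 was led by kallikrein genes with 2 hemoglobin genes among its leading 10. The transit-amplifying-like class held 1 cluster led by genes of neutrophil granules such as Ngp, Elane and Camp. The enterocyte- or hepatocyte-like class (207 cells) had 13 of 14 list markers at more than 2-fold, and its leading genes, among them Clca1, Guca2b, Lypd8, Sis and Lgals4, were mainly intestinal ones. The microfold-like class (162 cells) had all 10 of its markers at more than 2-fold, led by Ccl20, and also 8 of 14 enterocyte or hepatocyte markers.

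Hamp encodes hepcidin, the peptide hormone that makes cells take their iron exporter ferroportin off the surface, and Hamp2 is its mouse paralogue. The pair is alike in sequence, and it parted by cell class in these data, so the 250 bases before each RefSeq start site are shown on build GRCm38.p6, with capitals for each base that differs from the other gene or has no partner in it when the 2 are aligned end to end.
Hamp, chr7:30944030-30944279, minus strand: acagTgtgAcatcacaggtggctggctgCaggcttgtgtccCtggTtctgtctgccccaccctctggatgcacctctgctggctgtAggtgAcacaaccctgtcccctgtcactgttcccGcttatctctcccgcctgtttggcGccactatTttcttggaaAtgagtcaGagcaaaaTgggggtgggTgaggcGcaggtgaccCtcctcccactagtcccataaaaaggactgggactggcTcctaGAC
Hamp2, chr7:30924182-30924431, minus strand: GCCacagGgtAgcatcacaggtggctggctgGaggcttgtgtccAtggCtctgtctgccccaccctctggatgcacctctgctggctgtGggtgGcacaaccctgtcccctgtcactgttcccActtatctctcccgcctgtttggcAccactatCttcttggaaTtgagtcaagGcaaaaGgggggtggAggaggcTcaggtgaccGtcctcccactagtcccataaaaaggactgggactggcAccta

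The windows were identical at 230 of 256 aligned positions (89.8%), with 20 bases in capitals in each and a longest shared run of 40 bases. For comparison, the same windows of the neighbours Apoa1 and Apoa4 were identical at 53.3% of aligned positions, and those of Fga and Fgg at 50%. The Hamp2 window lies wholly inside the Hamp2 gene of GENCODE, whose start differs from that of RefSeq. The longest coding transcripts of Hamp (410 bases) and Hamp2 (437 bases) were identical at 89.0% of aligned positions. Of the 361 stretches of 50 bases in the Hamp transcript, 60 (16.6%) also stood without a mismatch in the Hamp2 transcript. How the authors' counting treated reads that match both genes is not given in the sources used here, so the count of each gene near such stretches is uncertain.

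Hamp was the most abundant of the 10 genes, with 21077 UMIs in 1211 cells. The microfold-like class held 56.1% of them: 141 of 162 cells had a UMI (87.0%, exact 95% interval 80.9% to 91.8%), and its level averaged 5195 ± 2322 CPM (the UMIs of the gene scaled by all UMIs of the class in a sample, with no division by length since 1 UMI marks 1 molecule; SD, n = 4 samples). Aire-stage-like cells held another 34.9%, with a UMI in 582 of 1108 cells (52.5%) and 347 ± 100.4 CPM. The enterocyte- or hepatocyte-like class held 5.29%, in 71 of 207 cells (34.3%), at 387 ± 214 CPM. Between these last 2 classes the sample values overlapped, and every microfold-like sample (2620 to 8261 CPM) stood above every Aire-stage-like sample (237 to 479 CPM). Free RNA in droplets gives single UMIs in cells that do not make a gene, and 4 of 74 thymocyte-like cells (5.41%, median 5746 UMIs per cell) and 17 of 87 myeloid-like cells (19.5%) had a Hamp UMI. To set the classes at 1 depth, cells of 5000 UMIs or more were thinned to 5000, and shallower cells were left out (28 of 162 microfold-like, 116 of 1108 Aire-stage-like, 36 of 207 enterocyte- or hepatocyte-like and 26 of 74 thymocyte-like cells). A Hamp UMI was then found in 85.1% of the remaining microfold-like, 30.3% of Aire-stage-like, 22.8% of enterocyte- or hepatocyte-like and 4.17% of thymocyte-like cells (2 of 48). In tuft-like cells, 153 of 980 (15.6%) had a Hamp UMI, a share no higher than in the myeloid-like cells, and 84.3% of those 153 cells had just 1.

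Hamp2 had 5159 UMIs in 539 cells and a different place. Tuft-like cells, which in gut and airway sense chemicals, held 52.5% of its UMIs, in 289 of 980 cells (29.5%, 26.6% to 32.5%) at 202 ± 42.3 CPM. Thinned to 5000 UMIs in the same way, with 91 of 980 tuft-like cells left out, 23.7% of tuft-like and 7.26% of Aire-stage-like cells had Hamp2, and unthinned 1 of 74 thymocyte-like cells did. Cluster 8 held most of the tuft-like Hamp2 cells (211 of its 523 cells, 40.3%), against 64 of 357 in cluster 9 and 14 of 100 in cluster 3. Aire-stage-like cells held 31.1% of Hamp2 UMIs, in 143 of 1108 cells (12.9%) at 65.8 ± 31.9 CPM. In microfold-like cells, where Hamp was highest, 11 of 162 cells (6.79%) had a Hamp2 UMI. Of all UMIs of the pair, Hamp2 made up 92.7% in tuft-like cells (89.5% to 95.7% over the 4 samples), 17.9% in Aire-stage-like cells (7.03% to 26.4%) and 0.429% in microfold-like cells (0.0889% to 1.499%). In microfold-like cells 51 Hamp2 UMIs stood beside 11830 Hamp UMIs. Both genes had a UMI in 177 epithelial cells, 92 of them Aire-stage-like.

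**Figure D1:**
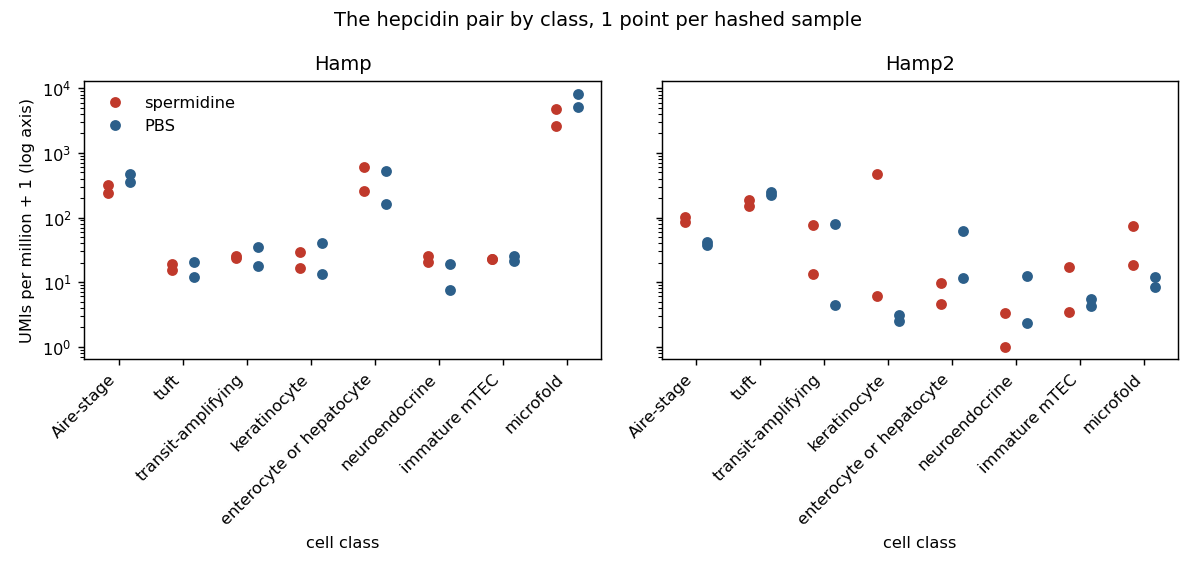
CPM plus 1 (log axis) of Hamp (left) and Hamp2 (right) in the 8 epithelial classes with 20 or more cells in every sample, 1 point per hashed sample, spermidine in red left of PBS in blue. Hamp is highest in the microfold-like class in all 4 samples, and Hamp2 in the tuft-like class in 3 of 4 samples, spermidine 2 being higher in the keratinocyte-like class (478 CPM, 244 of 247 UMIs in 1 cell).

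Ttr encodes transthyretin, the carrier of thyroxine and of the retinol-binding protein in plasma. It had 3122 UMIs in 198 cells. The enterocyte- or hepatocyte-like class held 44.5%, in 43 of 207 cells (20.8%, 15.5% to 26.9%), at 437 ± 425 CPM. The SD nearly equals the mean, with samples between 65.5 and 1043 CPM. Neuroendocrine-like cells held another 29.1%, but 1 cell had 840 of those 910 UMIs (92.3%). Aire-stage-like cells held 17.4%, in 60 of 1108 cells (5.42%), and no thymocyte-like cell had a Ttr UMI (0 of 74, which allows a share of up to 4.05%, a limit on cells with a UMI that covers counting error only).

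Fga, Fgb and Fgg encode the chains of fibrinogen, the soluble protein that thrombin turns into the fibrin of clots, and Alb encodes serum albumin, the most abundant protein of plasma. All 4 were rare, and most of their UMIs stood in Aire-stage-like cells. Fga had 122 UMIs in 6 cells, all Aire-stage-like, and 1 cell held 91 of them (74.6%). Fgb had a UMI in 23 cells, 14 of them Aire-stage-like (1.26% of the class), with 86.1% of its 244 UMIs, and 3 of 204 neuroendocrine-like cells (1.47%) held another 10.7%. Fgg, the least rare chain, had 37 Aire-stage-like cells among 55 (3.34% of the class, 2.36% to 4.57%), with 91.4% of its 510 UMIs, at 21.2 ± 6.21 CPM. Alb had 19 such cells among 29 (1.71% of the class, 1.04% to 2.66%), with 94.7% of its 393 UMIs, at 18.7 ± 10.5 CPM. In the enterocyte- or hepatocyte-like class Fga and Alb were not detected (0 of 207 cells each, which allows a share of up to 1.45%), and Fgb and Fgg had 1 cell each. Within the Aire-stage-like class, cluster 0 held 93.4% of all Fga UMIs, 51.2% of Fgb, 67.6% of Fgg and 81.4% of Alb.

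Most cells with a fibrinogen UMI had just 1 chain. Of 42 Aire-stage-like cells with a fibrinogen UMI, 30 had 1 of the 3 genes, 9 had 2 and 3 had all 3. The 30 cells with 1 gene held 285 of the 798 fibrinogen UMIs, so most fibrinogen transcripts stood in the cells with 2 or 3 genes. Of the 14 cells with Fgb, 9 also had Fgg (64.3%), and Fgg had a UMI in 3.34% of the whole class. Of the 42 cells 3 also had Alb, beside 19 of the 1108 cells of the whole class (1.71%). These shares are descriptions of few cells from 4 samples of 1 run, and depth differed between cells with and without a gene (a median of 22699 UMIs in Aire-stage-like cells with Alb and 19872 in those without, but 19346 with Fgg and 19973 without).

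The Alb window is shown because Alb, the classical product of hepatocytes, was not detected in the enterocyte- or hepatocyte-like class, and that of Apoa4 because Apoa4 was common there. Capitals mark matches, on either strand, of the motifs whose letters follow the sequences, in the 250 bases before the RefSeq start on GRCm38.p6.
Alb, chr5:90460620-90460869, plus strand: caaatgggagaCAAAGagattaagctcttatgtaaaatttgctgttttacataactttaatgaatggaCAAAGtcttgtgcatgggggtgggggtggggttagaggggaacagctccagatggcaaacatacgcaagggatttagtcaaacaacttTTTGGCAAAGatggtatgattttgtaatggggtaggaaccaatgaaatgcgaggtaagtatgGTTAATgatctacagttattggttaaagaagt
Apoa4, chr9:46240594-46240843, plus strand: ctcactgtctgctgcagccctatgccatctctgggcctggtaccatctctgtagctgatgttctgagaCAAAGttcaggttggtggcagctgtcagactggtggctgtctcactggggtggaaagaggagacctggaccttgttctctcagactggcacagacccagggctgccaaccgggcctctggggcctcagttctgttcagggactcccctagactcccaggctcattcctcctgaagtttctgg

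Motifs were searched on both strands in the windows of 300 bases, 250 before and 50 after each start, of the 9 members in the RefSeq table, and in all 32851 promoters of that table. The motif GTTAAT stood in 3 of the 9 windows (Fga, Fgb and Alb) and in 7.099% of all promoters. The C/EBP motif TTGCNNAA stood in 4 (Fga, Fgb, Alb and Apob) and in 10.8% of all. The HNF4 motif CAAAG stood in 5 and in 53.9% of all, the motif AGGTCA in 1 (Fgg) and in 16.3% of all, and TATAAA in 1 (Apob) and in 13.6% of all. Alb held 3 CAAAG matches, 1 of which overlaps its C/EBP match. Runs of 5 or more CA, TG, GC or CG repeats, alternating purine and pyrimidine stretches of the kind that can form Z-DNA, stood in none of the 9 and in 2.45% of all promoters. Such matches are letters in a window and do not show that a factor binds there. The 250 bases before the RefSeq starts of Hamp, Hamp2, Fga, Apoa1, Apoa4 and Apob run into the GENCODE genes, whose starts differ.

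Apoa1 is the main protein of high-density lipoprotein, Apoa4 is an apolipoprotein that the gut adds to chylomicrons, and Apob is the large protein around which chylomicrons and very-low-density lipoproteins are built. All 3 were shared between the Aire-stage-like class and the gut-like classes. Apoa4 had 6074 UMIs in 645 cells: it had a UMI in 96 of 162 microfold-like cells (59.3%, 51.3% to 66.9%), in 99 of 207 enterocyte- or hepatocyte-like cells (47.8%, 40.9% to 54.9%) and in 287 of 1108 Aire-stage-like cells (25.9%, 23.3% to 28.6%). Its levels of 624 ± 96.0 CPM in the microfold-like class and 627 ± 66.6 CPM in the enterocyte- or hepatocyte-like class overlapped over the samples, and all of these stood above the Aire-stage-like samples (89.4 to 147 CPM). Apoa1 had 5603 UMIs in 342 cells, with 51.9% in Aire-stage-like cells (142.8 ± 51.4 CPM), 23.3% in the enterocyte- or hepatocyte-like class (444 ± 198 CPM) and 15.3% in the microfold-like class (368 ± 166 CPM). Apob had 787 UMIs in 127 cells, 72.7% of them in Aire-stage-like cells (22.6 ± 15.6 CPM), mostly in cluster 0 (62.9%), and its level there overlapped that of the enterocyte- or hepatocyte-like class (36.7 ± 21.1 CPM). At 5000 UMIs per cell, Apoa4 was found in 52.2% of microfold-like, 39.8% of enterocyte- or hepatocyte-like, 15.1% of Aire-stage-like and 2.08% of thymocyte-like cells. Apoa4 had a UMI in 4 of 74 thymocyte-like cells (5.41%), Apoa1 in 1 and Apob in 0.

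The apolipoproteins were often found in the same cells. In the enterocyte- or hepatocyte-like class 47 of 59 cells with Apoa1 also had Apoa4 (79.7%), against 47.8% of the class, and 22 of 28 cells with Apob also had Apoa4 (78.6%). In microfold-like cells 39 of 45 cells with Apoa1 had Apoa4 (86.7%), against 59.3% of the class. In Aire-stage-like cells 78 of 138 cells with Apoa1 had Apoa4 (56.5%), against 25.9% of the class. Each of these overlaps was seen in all 4 samples. Cells with Apoa4 were also deeper than those without, by medians of 15822.5 and 7779.5 UMIs in the microfold-like, 14424 and 13213 in the enterocyte- or hepatocyte-like and 22130 and 19324 in the Aire-stage-like class, and the part of depth in the overlaps was not tested.

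Counting the 10 genes together, 797 of 1108 Aire-stage-like cells (71.9%) had a UMI of at least 1 of them, as did 154 of 162 microfold-like cells (95.1%), 150 of 207 enterocyte- or hepatocyte-like cells (72.5%) and 483 of 980 tuft-like cells (49.3%), and 10 of 74 thymocyte-like cells (13.5%). At least 4 of the genes were held by 37 Aire-stage-like cells (3.34%), 19 microfold-like cells (11.7%) and 16 enterocyte- or hepatocyte-like cells (7.73%), and 1 Aire-stage-like cell held 7. Most UMIs came from few cells: in the Aire-stage-like class cells with 10 or more UMIs of a gene held 83.9% of the Hamp UMIs (112 of 582 cells with Hamp), 90.3% of the Fgg UMIs (13 of 37) and 92.2% of the Alb UMIs (10 of 19).

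**Figure D2:**
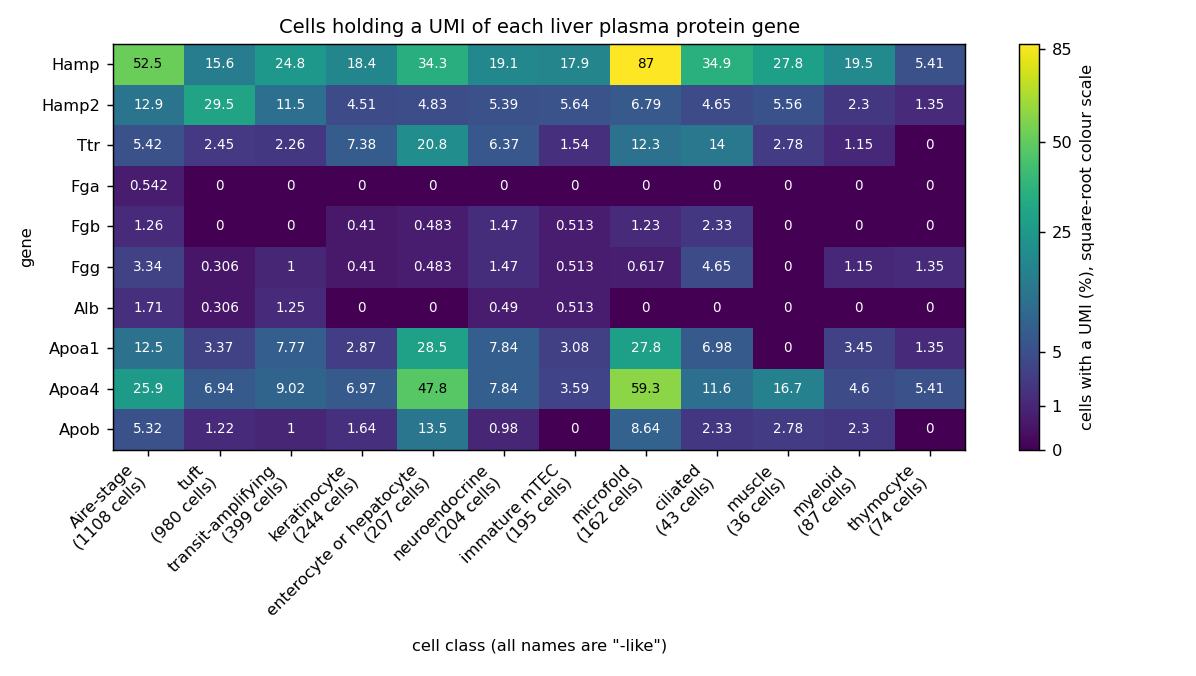
Percent of cells with at least 1 UMI of each gene (rows) in each class (columns, with cell numbers), on a square-root colour scale and without correction for depth. Hamp and Apoa4 reach 87.0% and 59.3% in the microfold-like class, Hamp2 29.5% in the tuft-like class, and Fga, Fgb, Fgg and Alb stay under 5% in every class.

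Other genes of the same kinds were counted from lists. All 56 other liver-secreted plasma proteins had UMIs and 43 had 100 or more, of which 14 were highest in the Aire-stage-like class and 9 in the enterocyte- or hepatocyte-like class. The 6 with the most UMIs were Saa1, an acute-phase apolipoprotein (1944 CPM in the enterocyte- or hepatocyte-like class and 218 CPM in the Aire-stage-like class), complement component C3 (969 and 268 CPM), Apoe, Trf, the iron carrier transferrin, Apoc3, an inhibitor of lipoprotein lipase (409 and 47.0 CPM), and Orm1. Of the 15 genes of lipoprotein assembly, 14 had 100 or more UMIs and 9 of these were highest in the enterocyte- or hepatocyte-like class. Fabp1, which binds fatty acids in enterocytes and hepatocytes, had 1581 CPM in the microfold-like class, and Apobec1, the enzyme that edits Apob mRNA, had 257 CPM in the enterocyte- or hepatocyte-like class. Of the 21 liver and gut transcription factors with 100 or more UMIs, 6 were highest in neuroendocrine-like cells, 4 in the enterocyte- or hepatocyte-like class and 3 in the microfold-like class. Those with the most UMIs included Cdx1, highest in transit-amplifying-like cells (354 CPM), and Hnf4g, highest in the microfold-like class (702 CPM). Of the 17 genes that control hepcidin with 100 or more UMIs, 5 were highest in immature mTECs, 3 in keratinocyte-like cells and only Bmp2 in the microfold-like class. Bmp2, a ligand that raises hepcidin in the liver, had 341 CPM there, and Stat3, which carries the interleukin-6 signal to hepcidin, had 478 CPM in immature mTECs. Of 14 enzymes that mark liver tissue itself, 9 had any UMI in the microfold-like class and 11 in the enterocyte- or hepatocyte-like class, where Cyp2e1, Cyp1a2 and Tat were at 0.

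Over 37 class by sample sums of 10 classes, the genes whose log2(CPM + 1) followed Hamp most closely were Uts2b, Hoxd4 and 4930528P14Rik (Pearson r of 0.90, 0.90 and 0.89). Apoa4 was closest to Apoc3 (r = 0.92), its neighbour in the apolipoprotein cluster, followed by Rps6kl1 and Timd2 (0.89 each). Apob was closest to Creb3l3 (r = 0.88), which encodes a transcription factor of hepatocytes and enterocytes, followed by Psg27 and Timd2 (0.88 each). Hamp2 was closest to Myo3b, Hmx3 and Tas2r105 (r of 0.70, 0.69 and 0.68), Ttr to Saa3 (0.83) and Fgg to Cryaa (0.87). The genes nearest to Alb were Tsx, Slc14a2 and Gad2 (0.95, 0.92 and 0.91). Nearest to Fga was Defb23 (0.97), to Fgb Ucn3 (0.80) and to Apoa1 Hoxd4 (0.87). Among the members, Apoa1 and Apoa4 had r = 0.85 and Hamp and Hamp2 had r = 0.21. Sums of 1 sample share their library and sums of 1 class share their cell type, so these values describe likeness over classes and carry no test.

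The comparison of spermidine with PBS asks whether the treatment moves these antigens. In Aire-stage-like cells, the class with the most cells that held a member, Hamp2 was higher and Hamp and Apoa1 were lower with spermidine in both samples, but no gene passed the test. Cells of each class were summed per sample and compared with edgeR's quasi-likelihood test, adjusted over all genes tested. After adjustment 0 of 17822 genes were called (0%), among them 0 of the 10 members, while an unadjusted p under 0.05 was reached by 1280 genes (7.18%) and by 2 of the 10 members. The sample values did not overlap for 2 members that were higher with spermidine (Hamp2 and Fgb; 19% of all genes) and for 2 that were lower (Hamp and Apoa1; 18.7% of all genes). The median log2 fold change (spermidine over PBS) of the 10 members was 0.60, and that of all genes -0.0035.

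Hamp2 had 101.7 and 84.9 CPM (from here on scaled by TMM, edgeR's library factors) in the spermidine samples and 41.5 and 36.9 CPM in the PBS samples, a log2 fold change of 1.25 (SE 0.14; adjusted p = 0.513, edgeR). DESeq2 called Hamp2 alone among the members, as 1 of 77 genes called of 17990 tested. The log2 fold change was 0.63 with 4 hashtags in the sample assignment, 0.79 with a mitochondrial limit of 10%, and 0.66 and 1.99 in clusters 0 and 4 alone. The share of Aire-stage-like cells with a Hamp2 UMI overlapped between the groups: 13.6% and 12.5% with spermidine, against 13.3% and 11.8% with PBS. Cells with 50 or more Hamp2 UMIs numbered 6 and 3 in the spermidine samples and 0 and 0 in the PBS samples, and cells with 10 or more held 89.8% and 90.9% of Hamp2 UMIs with spermidine, against 63.0% and 74.1% with PBS. With each cell limited to 5 UMIs per gene the Hamp2 log2 fold change was 0.09.

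Hamp had 322 and 237 CPM with spermidine and 353 and 488 CPM with PBS, a log2 fold change of -0.59 (SE 0.22, adjusted p = 0.690, edgeR). The values differed by cluster: in cluster 0 Hamp had 142 and 112 CPM with spermidine and 307 and 472 CPM with PBS (log2 fold change -1.61, SE 0.26, adjusted p = 0.772, edgeR), and in cluster 4 it had 586 and 388 CPM with spermidine and 398 and 437 CPM with PBS (0.22, SE 0.21). Fitted after the values were seen, the difference between these changes was -1.80 (SE 0.21) and was not called (adjusted p = 0.581, edgeR). Cluster 0 made up 186 and 126 of the Aire-stage-like cells with spermidine and 73 and 71 with PBS, and cluster 4 168 and 130 with spermidine and 111 and 121 with PBS, so the mix of clusters in the class moved with the treatment. Apoa1 had 88.7 and 134.7 CPM with spermidine and 136.6 and 216 CPM with PBS (log2 fold change -0.67, SE 0.30, adjusted p = 0.746, edgeR).

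The rare members rested on few cells. Fga had 0.247 and 18.7 CPM with spermidine and 0.269 and 3.87 CPM with PBS, and 1 cell of spermidine 2 held 91 of the 102 UMIs there. Fgb had 4.81 and 28.3 CPM with spermidine and 4.31 and 0.228 CPM with PBS (log2 fold change 2.89, SE 1.32, adjusted p = 0.751, edgeR). Fgg (21.5 and 26.5 CPM with spermidine, 24.8 and 12.8 CPM with PBS) and Alb (5.80 and 31.4 CPM with spermidine, 18.1 and 19.8 CPM with PBS) overlapped between the groups. So did Apoa4 (90.2 and 146.5 CPM with spermidine, 100.5 and 101.6 CPM with PBS), Apob (42.2 and 16.5 CPM with spermidine, 5.12 and 27.6 CPM with PBS) and Ttr (17.0 and 48.3 CPM with spermidine, 14.0 and 20.3 CPM with PBS).

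**Figure D3:**
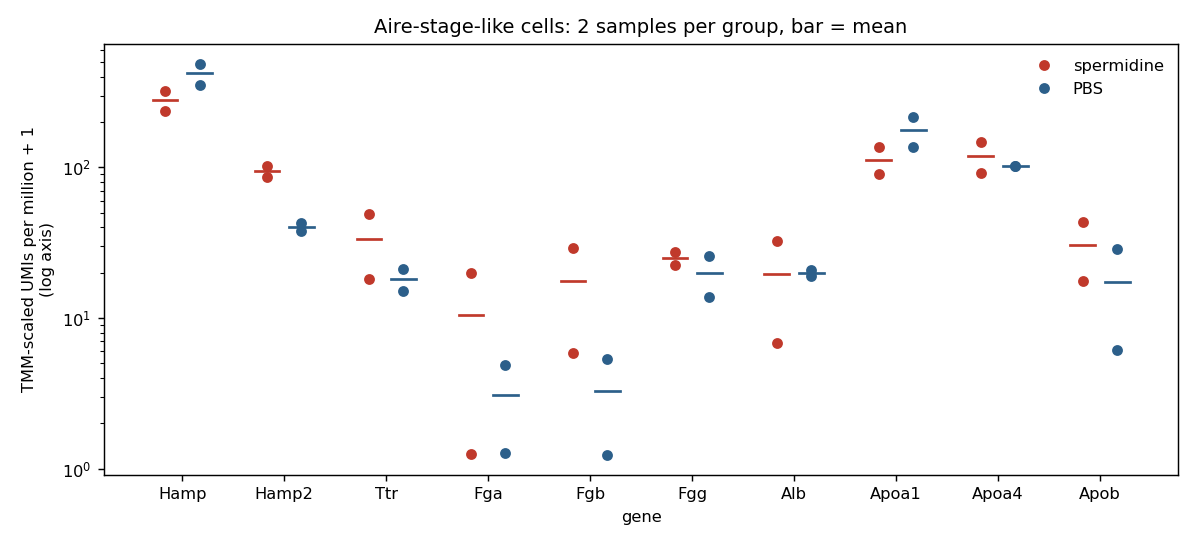
TMM-scaled CPM plus 1 (log axis) of each gene in Aire-stage-like cells, spermidine in red left of PBS in blue, 1 point per hashed sample (2 per group) and a bar at the mean. The groups stand apart for Hamp, Hamp2, Fgb and Apoa1, and 1 spermidine sample is far above the other 3 for Fga and Fgb.

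Several marker lists stood apart between the groups in this class, as 19% (higher) and 18.7% (lower) of single genes did. The summed level of 5 erythroid markers, all detected, was 296 and 862 CPM with spermidine and 112 and 122 CPM with PBS. The microfold list was lower, at 2137 and 2001 CPM with spermidine and 2203 and 2592 CPM with PBS. So were the Aire-stage, immature mTEC, neuroendocrine, keratinocyte and myeloid lists. The level of 14 liver enzymes overlapped, at 157 and 177 CPM with spermidine and 116 and 197 CPM with PBS. Their part in the members' values was not tested.

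In the enterocyte- or hepatocyte-like class (58 and 52 cells with spermidine, 54 and 43 with PBS) 5 members passed the filter on low counts and 0 of 8944 genes were called (0%), with 1 member and 448 genes (5.01%) at an unadjusted p under 0.05. In both spermidine samples 1418 of the 8944 genes were lower than in both PBS samples, among them Ttr. Ttr had 262 and 67.0 CPM with spermidine and 1064 and 417 CPM with PBS (log2 fold change -2.16, SE 0.67, adjusted p = 0.837, edgeR). Of these UMIs, 1 cell held 54.8% and 20% in the spermidine samples and 37.9% and 88.4% in the PBS samples. Apoa1 (320 and 389 CPM with spermidine, 358 and 797 CPM with PBS), Apoa4 (618 and 605 CPM with spermidine, 609 and 786 CPM with PBS), Apob (22.7 and 32.8 CPM with spermidine, 69.2 and 27.4 CPM with PBS) and Hamp (262 and 621 CPM with spermidine, 164 and 570 CPM with PBS) overlapped between the groups. The median log2 fold change of the 5 was -0.70, and that of all genes 0.0054.

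The microfold-like class had 0 called genes of 6832 (0%) and 365 (5.34%) at an unadjusted p under 0.05, among them 3 of the 5 members tested. Hamp had 2732 and 5056 CPM with spermidine and 8873 and 5350 CPM with PBS, a log2 fold change of -0.87 (SE 0.31, adjusted p = 0.909, edgeR). Holders were common in both groups: at a depth of 5000 UMIs per cell 84.6% and 80.8% of the spermidine cells and 88.6% and 85.3% of the PBS cells had a Hamp UMI. Cells with 50 or more Hamp UMIs numbered 8 and 6 of 48 and 32 with spermidine and 16 and 12 of 40 and 42 with PBS, and with counts limited to 5 UMIs per cell the log2 fold change was 0.04. Median depth in the class was 7780 and 10688 UMIs per cell with spermidine and 16587 and 9068 with PBS. Apoa1 had 293 and 262 CPM with spermidine and 658 and 345 CPM with PBS (log2 fold change -0.86, SE 0.30, adjusted p = 0.909, edgeR; 0.33 with counts limited to 5 UMIs per cell). Ttr, low in this class, had 43.5 and 28.2 CPM with spermidine and 7.89 and 5.88 CPM with PBS, from 11 and 3 cells with spermidine and 3 and 3 with PBS (log2 fold change 2.35, SE 0.53, adjusted p = 0.494, edgeR).

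In tuft-like cells 11 of 12673 genes were called (0.0868%) and 0 of the 4 members tested, and 2 members and 1357 genes (10.7%) had an unadjusted p under 0.05. Hamp2 had 190 and 154 CPM with spermidine and 219 and 252 CPM with PBS, a log2 fold change of -0.44 (SE 0.11, adjusted p = 0.198, edgeR). Here the share of cells with a Hamp2 UMI was also lower in both spermidine samples, 23.8% and 26.1% with spermidine, against 32.4% and 33.0% with PBS. Apoa1 had 1.82 and 2.31 CPM with spermidine and 11.3 and 4.36 CPM with PBS (log2 fold change -2.02, SE 0.56, adjusted p = 0.249, edgeR). In this class 2707 of 12673 genes were lower in both spermidine samples than in both PBS samples, including 2 of 4 members tested.

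**Figure D4:**
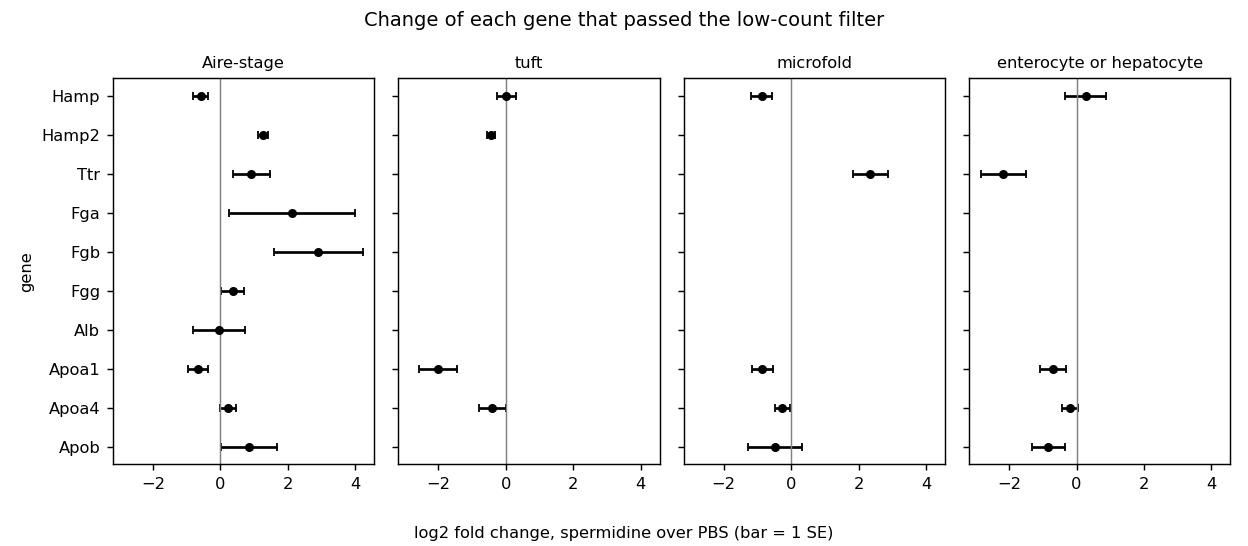
Log2 fold change of spermidine over PBS (points) with 1 standard error (bars) for the members that passed the low-count filter in 4 classes. Hamp2 lies above 0 in the Aire-stage-like class (1.25) and below 0 in the tuft-like class (-0.44), and Ttr lies above 0 in the microfold-like class (2.35) and below 0 in the enterocyte- or hepatocyte-like class (-2.16).

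Whether a member's change differed between classes was tested directly, for 5 pairs of classes or clusters and after the single values had been seen, in edgeR models over the sums of both classes with the hashed sample as a term. Each p was adjusted over the genes of its pair and not over the 5 pairs. For Hamp2 the change in Aire-stage-like cells minus that in tuft-like cells was 1.74 (SE 0.17, adjusted p = 0.0407 over 18301 genes, edgeR), 1 of 3 genes called (0.0164%). For Ttr the change in microfold-like minus that in enterocyte- or hepatocyte-like cells was 4.65 (SE 0.62, adjusted p = 0.0201 over 9311 genes, edgeR), 1 of 5 genes called (0.0537%). No member was called between the Aire-stage-like and microfold-like classes (3 of 15224 genes, 0.0197%), between the Aire-stage-like and enterocyte- or hepatocyte-like classes (0 of 15640, 0%; 715 at an unadjusted p under 0.05) or between clusters 0 and 4 (0 of 16082, 0%; 737 at an unadjusted p under 0.05). In edgeR fits under alternatives the Hamp2 difference was 0.40 (adjusted p = 0.732) with counts limited to 5 UMIs per cell, 1.06 (adjusted p = 0.412) with 4 hashtags in the sample assignment, 1.24 (adjusted p = 0.454) with a mitochondrial limit of 10% and 1.72 (adjusted p = 0.127) without spermidine 2, so it was not called there. The Ttr difference was not called by edgeR in 4 alternatives, at 2.68 (adjusted p = 0.548) with the limit of 5 UMIs, 3.06 (adjusted p = 1) with 4 hashtags, 4.33 (adjusted p = 0.569) with the mitochondrial limit of 10% and 4.69 (adjusted p = 0.0998) with coarser clusters.

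**Figure D5:**
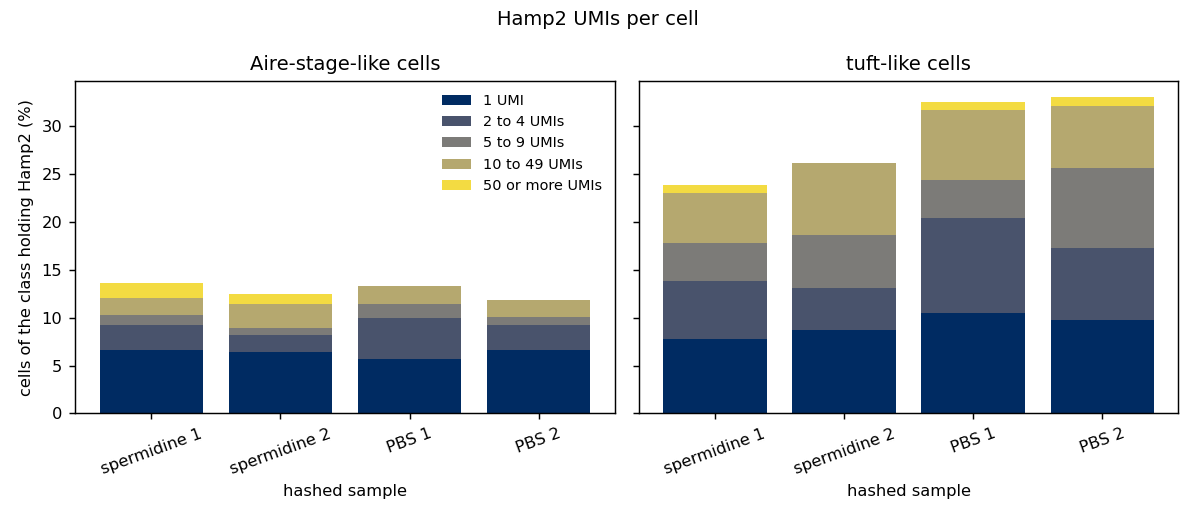
Percent of Aire-stage-like (left) and tuft-like (right) cells with a Hamp2 UMI in each hashed sample, spermidine left of PBS, divided by the number of Hamp2 UMIs in the cell. Aire-stage-like cells with 50 or more UMIs occur in the spermidine samples only (6 and 3 cells), at like totals of 11.8% to 13.6%, and the tuft-like totals are 23.8% and 26.1% with spermidine and 32.4% and 33.0% with PBS.

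The ciliated-like and muscle-like classes had under 20 cells in a sample and were not fitted. In the other classes 0 members were called: 0 of 7883 genes (0%; 452 at an unadjusted p under 0.05) in immature mTECs, 0 of 9070 (0%; 592) in keratinocyte-like cells, 0 of 9884 (0%; 467) in neuroendocrine-like cells and 20 of 11937 (0.168%) in transit-amplifying-like cells. Apoa1 (10.98 and 21.99 CPM with spermidine, 6.43 and 5.50 CPM with PBS) and Apoa4 (6.17 and 18.7 CPM with spermidine, 3.46 and 3.0003 CPM with PBS) were higher in both spermidine samples of the transit-amplifying-like class, with adjusted p of 0.334 and 0.377 (edgeR). In that class 2399 of 11937 genes were higher in both spermidine samples than in both PBS samples, including 2 of 4 members tested. An unadjusted p under 0.05 (edgeR) was reached by 1187 genes and by 2 members. There 1 cell held 75% and 86.7% of the Apoa1 UMIs with spermidine and 30.8% and 45.5% with PBS, and the share of cells with Apoa1 was lower with spermidine, 4.46% and 8.16%, against 12.9% and 9.46% with PBS. Hamp2 did not pass the filter in keratinocyte-like cells, where spermidine 2 held 247 of its 255 UMIs.

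Summed over all epithelial classes, 0 of 21462 genes were called (0%), and 3 members and 3245 genes (15.1%) had an unadjusted p under 0.05. Fgg had 10.6 and 11.4 CPM with spermidine and 5.52 and 4.64 CPM with PBS (log2 fold change 1.11, SE 0.19, adjusted p = 0.207, edgeR). Hamp had 239 and 293 CPM with spermidine and 416 and 413 CPM with PBS (-0.64, SE 0.12, adjusted p = 0.207, edgeR). DESeq2 called it as 1 of 474 genes called of 20084 tested. The share of cells with a Hamp UMI went the other way, at 36.2% and 36.8% with spermidine and 29.0% and 31.6% with PBS, and so did the share with 3198 cells thinned to 5000 UMIs and 380 shallower ones left out, at 19.0% and 20.8% with spermidine and 14.8% and 18.4% with PBS; at 2500 UMIs the groups overlapped (15.8% and 13.4% with spermidine, 11.3% and 13.5% with PBS). Ttr had 21.0 and 35.7 CPM with spermidine and 56.7 and 96.8 CPM with PBS (-1.44, SE 0.35, adjusted p = 0.231, edgeR). With counts limited to 5 UMIs per cell the log2 fold change of Hamp was 0.15 and that of Ttr 0.20. These sums also move with the mix of classes: Aire-stage-like cells were 35.5% and 36.0% of the cells with spermidine and 19.5% and 29.1% with PBS, and tuft-like cells 21.0% and 20.7% with spermidine and 34.6% and 27.4% with PBS. Sorting and pooling can set such shares, and fewer cells of a class and less RNA per cell cannot be told apart in these sums.

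Shares of cells were compared after cells of 5000 UMIs or more were thinned to 5000 and shallower cells left out. That left out 25 of 390 and 29 of 280 Aire-stage-like cells with spermidine and 33 of 210 and 29 of 228 with PBS, and 8 of 58 and 11 of 52 enterocyte- or hepatocyte-like cells with spermidine and 8 of 54 and 9 of 43 with PBS. In Aire-stage-like cells, 46.3% and 52.2% with spermidine and 49.7% and 57.3% with PBS had a UMI of at least 1 member, means of 49.2% ± 4.16 and 53.5% ± 5.35 (SD, n = 2 each; two-sided exact permutation p = 0.667, adjusted p = 1 over 11 tests). In the enterocyte- or hepatocyte-like class the shares were 50% and 58.5% with spermidine and 67.4% and 67.6% with PBS, means of 54.3% ± 6.04 and 67.5% ± 0.181 (exact permutation p = 0.333, the smallest that 2 against 2 samples allow; adjusted p = 1). There Apoa4 had a UMI in 28.0% and 36.6% of cells with spermidine and 54.3% and 41.2% with PBS, and Apoa1 in 14.0% and 14.6% with spermidine and 26.1% and 23.5% with PBS (exact permutation p = 0.333 each, adjusted p = 1). At 2500 UMIs per cell the groups overlapped in the enterocyte- or hepatocyte-like class, both for any member (46.3% and 52.1% with spermidine, 69.2% and 47.2% with PBS) and for Apoa4 (25.9% and 35.4% with spermidine, 42.3% and 33.3% with PBS). Over all cells, unthinned and with none left out, cells with at least 1 member were more frequent with spermidine by 0.949 percentage points in Aire-stage-like cells and by 1.63 in the enterocyte- or hepatocyte-like class, the opposite direction. With the cells under 5000 UMIs left out and none thinned, chosen after seeing the data, the differences were -1.87 and -6.01 percentage points.

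No list gene was called by edgeR in any fitted class. Of the 56 other liver-secreted plasma proteins 41 were tested in Aire-stage-like cells and 0 were called, 18 having a positive and 23 a negative log2 fold change (median -0.042, beside -0.0035 over all genes). C3 had 224 and 223 CPM with spermidine and 333 and 358 CPM with PBS (log2 fold change -0.63, SE 0.079, adjusted p = 0.524, edgeR), and Apoc3 had 23.3 and 42.1 CPM with spermidine and 62.0 and 85.9 CPM with PBS (-1.19, SE 0.33, adjusted p = 0.631, edgeR). Of the 15 genes of lipoprotein assembly 14 were tested and 0 called, 3 positive and 11 negative (median -0.33). Of the 18 genes that control hepcidin 17 were tested and 0 called (5 positive, 12 negative, median -0.11), of the 25 transcription factors 23 were tested and 0 called (10 positive, 13 negative, median -0.061), and of the 14 liver enzymes 12 were tested and 0 called (6 positive, 6 negative, median 0.010). In the enterocyte- or hepatocyte-like class 14 of the 56 plasma proteins were tested and 0 called, 3 positive and 11 negative (median -0.45), and Orm1 had 108 and 44.7 CPM with spermidine and 182 and 475 CPM with PBS (log2 fold change -2.08, SE 0.55, adjusted p = 0.828, edgeR).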

How the data were processed

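The deposited matrix holds counts, that is, UMIs of each gene and hashtag in every barcode, and per the file headers it came from Cell Ranger 7.1.0. The submitters' processing notes also name mm10, bcl2fastq and Seurat; the annotation and cell filter are not given in the sources used here. Of 12139 barcodes, 8534 had at least 1000 UMIs and 500 genes and under 15% mitochondrial UMIs. Hashtags HT2 to HT7 were assigned with HTODemux (Seurat 5.3.0), which removed 1831 doublets and 532 negatives; 2432 cells of HT6 or HT7, which carry no sample in the labels, were left out.

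Cells were clustered with scanpy 1.11.5 (2000 variable genes without the 10 members, Leiden resolution 1) and named from marker lists. Counts were summed per sample and class and fitted per class with at least 20 cells in each sample (filterByExpr with a minimum count of 10 and total of 15, TMM, quasi-likelihood test in edgeR 4.0.16 with R 4.3.3, Benjamini-Hochberg adjustment, threshold 0.05, no block). SE is the log2 fold change divided by the square root of F. Intervals are exact Clopper-Pearson at 95%, and a count of 0 was given a limit of 3 counts; both cover counting error only. Alternatives were DESeq2 1.42.0 and its size factors, no low-count filter, each sample left out, a replicate block, counts limited to 5 UMIs per cell, other clusters, 4 hashtags and a mitochondrial limit of 10%. Shares at 1 depth are of cells of 5000 UMIs or more, thinned to 5000, with shallower cells left out; 2500 was the alternative. Fits were tested on simulated data. All members are named, with the 6 genes of most UMIs per list, markers at 0, and the 3 genes most like a member. Of the list genes this rule names, 1 is not reported here. The members and lists were chosen with earlier results of these data known. Promoter sequences are from RefSeq (GRCm38.p6), which held 9 of the 10 members.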

Additional observations from a re-analysis of the deposited data

Results flagged for a closer look

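Changes with spermidine that differed between classes were looked for in 5 pairs of classes or clusters, chosen after the single values were seen, and 2 were called. The Hamp2 change in Aire-stage-like cells (log2 fold change 1.25) minus that in tuft-like cells (-0.44) was 1.74 (SE 0.17, adjusted p = 0.0407, edgeR). Hamp2 was higher in both spermidine samples than in both PBS samples in the Aire-stage-like class, and lower in both in the tuft-like class. Of all genes, 3380 of 17822 were higher in this way in the Aire-stage-like class, and 2707 of 12673 lower in the tuft-like class. The Ttr change in microfold-like cells (2.35) minus that in enterocyte- or hepatocyte-like cells (-2.16) was 4.65 (SE 0.62, adjusted p = 0.0201, edgeR). It rests on 24 and 11 Ttr UMIs with spermidine and 5 and 3 with PBS in microfold-like cells, and on 208 and 45 UMIs with spermidine and 877 and 259 with PBS in the other class.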

How the results depend on the processing

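No member was called by edgeR in any class in the main fits. DESeq2 called 77 of 17990 genes in Aire-stage-like cells, among them 1 of 10 members (Hamp2). It called 19 of 17569 genes and 0 of 7 members in enterocyte- or hepatocyte-like cells. Over all mTEC classes it called 474 of 20084 genes and 1 of 10 members (Hamp). In the other classes it made 124 calls, none of them of a member, against 31 by edgeR. Calls given for the other classes as a whole are summed over classes, so a gene can count once in each. Without the low-count filter edgeR called 1030 of 34912 genes and 7 of 10 members in Aire-stage-like cells. It called 256 of 22279 genes and 2 of 8 members in enterocyte- or hepatocyte-like cells. Over all mTEC classes 2406 of 37562 genes and 6 of 10 members were called. The summed calls in the other classes were 1860 for genes and 15 for members. Leaving out 1 sample gave 0 to 1 genes in Aire-stage-like cells (1 without PBS 1), 7 to 88 in enterocyte- or hepatocyte-like cells (88 without PBS 1; 0 to 2 members, 2 without PBS 2), 0 to 527 over all classes (527 without PBS 2) and 339 to 719 in the other classes (2 to 5 members); the lone sample is then assumed to vary like the other group. The labels give replicate numbers 1 and 2 in both groups without saying that they pair samples, and the deviations of same-numbered samples correlated at -0.009, 0.0861 and -0.0283 in Aire-stage-like, enterocyte- or hepatocyte-like and all mTEC sums; a replicate block gave 1 gene in enterocyte- or hepatocyte-like cells and 284 in the other classes. Limiting each gene to 5 UMIs per cell gave 1032 genes over all classes and 180 in the other classes, 4 hashtags in the assignment gave 59 in the other classes, and coarser clusters gave 4 in enterocyte- or hepatocyte-like cells. Unthinned and with no cell left out, shares of cells with a member differed by 0.949 and 1.63 percentage points, against -4.26 and -13.3 when thinned to 5000 UMIs without the shallower cells, and -1.87 and -6.01 without the shallower cells alone (added after seeing the data).

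Of 422 alternative values of 34 member log2 fold changes, 38 changed sign, and 19 of the 34 fold changes did so at least once. Limited to 5 UMIs per cell, values were -0.52 for Fgg, 0.31 for Alb and -0.11 for Apoa4 in Aire-stage-like cells, 0.042 for Hamp, 0.33 for Apoa1 and 0.010 for Apoa4 in microfold-like cells, and -0.35 for Hamp2, 0.15 for Hamp and 0.20 for Ttr over all classes. With 4 hashtags they were 0.59 for Alb and -0.80 for Ttr in Aire-stage-like, 0.013 for Apoa4 in microfold-like, and -0.30 for Hamp and 0.043 for Apoa4 in tuft-like cells. With a mitochondrial limit of 10%, Apob in microfold-like cells was 0.00095, and without the low-count filter Hamp in tuft-like cells was -0.021. Added after seeing the data, cluster 0 alone gave -0.10 for Fgg, and cluster 4 alone 0.22 for Hamp, -1.93 for Ttr and 2.66 for Alb. Leaving out 1 sample spread Aire-stage-like values over -0.055 to 0.90 for Fgg, -2.98 to 4.996 for Fga, -1.70 to 0.73 for Alb, -0.16 to 0.53 for Apoa4 and -0.010 to 1.49 for Ttr. It spread Hamp over -0.51 to 1.42 in enterocyte- or hepatocyte-like and -0.25 to 0.52 in tuft-like cells, Apob over -1.72 to 1.17 in microfold-like and Apoa4 over -0.996 to 0.0066 in tuft-like cells, and, over all classes, Fga over -2.56 to 5.90, Alb over -0.93 to 1.25, Hamp2 over -0.066 to 0.35 and Apoa4 over -0.094 to 0.38. The difference of the Hamp2 change was 0.40 with 5 UMIs per cell, 1.06 with 4 hashtags, 1.24 with the mitochondrial limit and 1.61 to 1.90 without 1 sample (not called without spermidine 2); that of Ttr was 2.68, 3.06 and 4.33 in the same 3 settings and 4.69 with coarser clusters. The causes were not tested.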
